A study of Mus musculus with 19 samples.

Results

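The interaction of the APP/PS1 and A2A genotypes was examined in the hippocampal RNA of female mice, that is, whether the APP/PS1 genotype was accompanied by a different change in gene expression when neurons also carried extra adenosine A2A receptor (A2AR). For each gene the log2 difference between carriers and non-carriers of APP/PS1 was taken with A2A (APP/PS1 A2A against A2A mice) and without A2A (APP/PS1 against WT mice), and the interaction was the first minus the second. A negative value therefore means a level in APP/PS1 A2A mice below the sum of the separate genotype effects, and a positive value a level above it. All 19 mice of the series entered this contrast, 4 of them APP/PS1 A2A and 5 of each other genotype, with 1 library per mouse. Of 35640 genes with any count, 18529 were tested.

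WT mice carried neither transgene. APP/PS1 mice were heterozygous for APPswe/PS1dE9, transgenes that include mutant amyloid precursor protein, under the mouse prion protein promoter, on a C57Bl6/J background. A2A mice were heterozygous for TRE-A2A, a mouse A2AR cDNA behind a Tet-responsive element, and APP/PS1 A2A mice carried both. Mice of all genotypes received the AAV2/5-CBA-tTA vector in the dorsal CA1 region at 3 months of age and were killed at 6 months, so tTA and the injection were shared by the controls. The receptor could be induced only in cells reached by the vector, whereas the RNA came from the whole hippocampus of 1 hemisphere. The receptor cDNA has an optimized codon sequence, so counts of the native gene Adora2a need not include its mRNA.

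A2AR is a receptor for adenosine coupled to Gs proteins, sparse in the normal hippocampus and more abundant there with age and in Alzheimer's disease. The mitochondrial respiratory chain passes electrons through complexes I to IV to oxygen, and ATP synthase uses the resulting proton gradient. Most subunits are encoded in the nucleus and imported, while a core set is encoded in the mitochondrial genome and made on mitochondrial ribosomes.

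Totals ran from 21305902 to 53717373 counts per mouse (median 35891080), and the APP/PS1 A2A libraries held 36502915 to 53717373. Markers of CA1 pyramidal neurons summed to 846.21 to 1502.2 CPM (counts scaled to library size) over all mice and markers of dentate granule cells to 692.95 to 1659.1, so both defining cell types of the labelled tissue were present in every library. Choroid plexus markers varied far more, from 238.4 to 15269 CPM, in each genotype. Their list had an interaction median of 0.28, which was -0.15 without APP/PS1 A2A replicate 3 and 1.50 without A2A replicate 4. Because bulk tissue was measured, fewer cells of a type and less RNA per cell cannot be told apart. Nothing in the labels ties mice to litters or days, and p-values measure the spread between these mice.

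No gene passed the test of the interaction. With edgeR's quasi-likelihood test, 0 of 18529 genes (0%) had an adjusted p under 0.05 with an absolute log2 value over 0.32, and the smallest adjusted p was 0.572, for Capn11. At an unadjusted p under 0.05 there were 704 genes, 3.8% of those tested where 5% is the nominal share. Of these, 584 had a negative value (3.15% of all genes) and 120 a positive one (0.648%). limma-voom called 0 genes, and DESeq2 called 1, Capn11. The median standard error of the interaction was 0.197, against 0.135 for the APP/PS1 difference without A2A and 0.143 for that with A2A. The 95% interval lay wholly within 0.32 of zero for 3857 genes (20.8%), and for the other genes it extended beyond that size in at least 1 direction. The precision depended on the level: the median standard error was 0.519 for the 3596 genes under 1 CPM and 0.13 for the 7948 genes between 10 and 100 CPM.

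**Figure D1:**
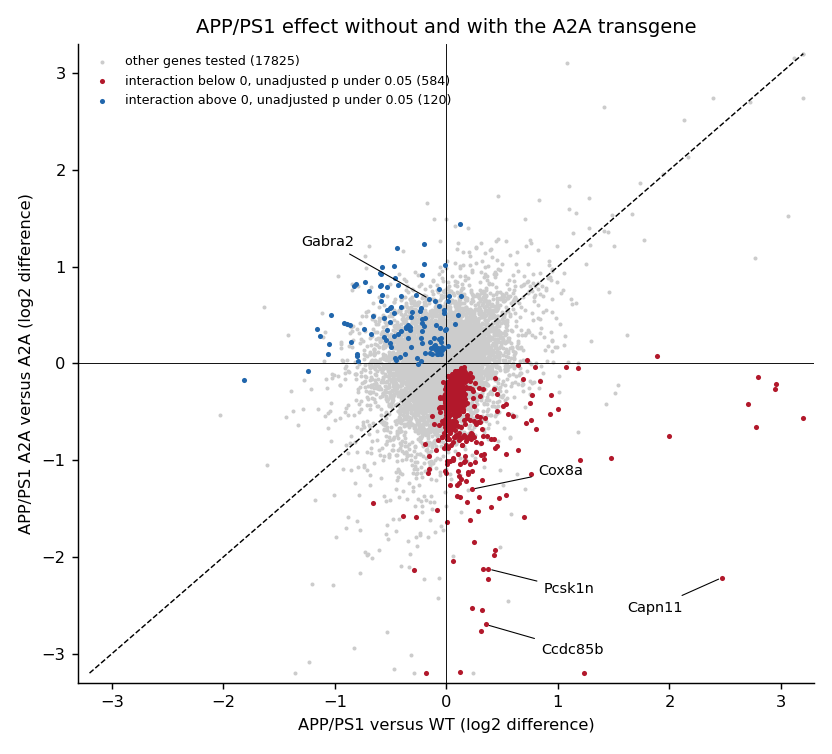
Log2 difference of APP/PS1 A2A versus A2A (vertical axis) against that of APP/PS1 versus WT (horizontal axis) for the 18529 genes tested; the dashed line marks equal differences, and values beyond the axes are drawn at the edge. The 584 genes in red lie below the line, mostly with a small positive difference without A2A and a negative one with it, and the 120 genes in blue lie above it.

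The 584 genes with a negative interaction at an unadjusted p under 0.05 were chosen by that value, so the pattern of their group means is a description of where it came from. In 522 of them (89.4%, against 45.9% of all genes) the APP/PS1 difference had opposite signs with and without A2A. The median APP/PS1 difference of the set was 0.08 without A2A and -0.36 with it, and the median A2A difference was 0.20 without APP/PS1 and -0.25 with it. The mean was lowest in APP/PS1 A2A mice for 505 of the 584 (86.5%, against 29.6% of all genes) and highest in A2A mice for 507 (86.8%, against 28.6%). A low level in APP/PS1 A2A mice and a high level in A2A mice both entered the negative values.

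The same 584 genes were followed mouse by mouse, as the median deviation of those at 1 CPM or more from their mean over all mice. It was -0.122, -0.157, -0.19 and -0.255 in the 4 APP/PS1 A2A mice and 0.23, 0.188, -0.0321, 0.23 and 0.131 in the 5 A2A mice. In WT mice it was -0.00175, 0.0522, -0.133, -0.0533 and -0.0162, and in APP/PS1 mice 0.223, 0.078, 0.093, -0.0861 and -0.103. Every A2A mouse lay above every APP/PS1 A2A mouse, while WT replicate 3 lay within the range of the APP/PS1 A2A mice. The genes were chosen for a negative interaction in these same mice, so this order of the groups follows in part from the choice. The 584 genes were GC-rich (median 57.3% GC, against 50.2% over all genes) and short (median length 994.25 bases, against 1507), and 90.6% were protein coding (82.2% of all genes). The 120 genes with a positive interaction had a median of 48.4% GC, a median length of 1906 bases and a median level of 1.2 CPM, and 58.3% were protein coding.

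Among the genes with a negative interaction, Capn11 on chromosome 17 (mm10, chr17:45630204-45659325), a member of the calpain family of calcium-dependent proteases, had the smallest p. It stood at 0.725, 0.349, 0.342, 0.334 and 0.739 CPM in WT mice and at 0.705, 0.565, 0.635 and 0.861 CPM in APP/PS1 A2A mice. It stood at 4.01, 0.732, 7.38, 2.24 and 1.76 CPM in A2A mice and at 2.16, 4.03, 5.98, 0.826 and 1.06 CPM in APP/PS1 mice. All APP/PS1 mice were above all WT mice, 4 of the 5 A2A mice were above them too, and the APP/PS1 A2A mice overlapped with WT. The APP/PS1 difference was 2.47 without A2A and -2.21 with it, which gave an interaction of -4.68 (SE 0.86, 95% interval -6.48 to -2.89, edgeR adjusted p = 0.572). With a mouse left out in turn it ran from -4.94 to -4.11. The value is that of a gene at low level, with 0.334 to 7.38 CPM over all mice, and the other calpains showed no such pattern: 13 calpain genes were tested, of which 1, Capn11 itself, was at an unadjusted p under 0.05, and their median was 0.01.

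Pcsk1n (chrX:7919822-7924410), which encodes proSAAS, a neuroendocrine peptide precursor and inhibitor of prohormone convertase 1, stood at 11.7, 17.9, 16.8 and 11.8 CPM in APP/PS1 A2A mice. It stood at 106, 70.5, 20.7, 51.9 and 69.1 CPM in A2A mice, 99.0, 51.9, 42.4, 33.9 and 17.5 CPM in APP/PS1 mice and 43.8, 53.0, 16.0, 38.4 and 37.2 CPM in WT mice. All 4 APP/PS1 A2A mice were below the A2A mice, but WT replicate 3 and APP/PS1 replicate 5 were as low. The interaction was -2.50 (SE 0.61, 95% interval -3.78 to -1.22, edgeR unadjusted p = 0.000668).

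Ccdc85b (chr19:5456789-5457397), a coiled-coil protein known to dampen beta-catenin signalling, was also low in APP/PS1 A2A mice. Its levels were 1.63, 2.94, 1.97 and 1.64 CPM in APP/PS1 A2A, 21.5, 17.7, 3.23, 8.36 and 16.1 CPM in A2A, 24.1, 10.8, 7.16, 8.02 and 2.76 CPM in APP/PS1 and 9.91, 12.4, 1.91, 8.65 and 8.26 CPM in WT mice. The interaction was -3.05 (SE 0.79, edgeR unadjusted p = 0.00115), and WT replicate 3, A2A replicate 3 and APP/PS1 replicate 5 were the lowest mice of their groups for both genes. Prr7, a proline-rich protein of the postsynaptic membrane, had 2.01, 2.15, 2.16 and 1.59 CPM in APP/PS1 A2A mice and 13.4, 6.14, 5.67, 4.29 and 2.23 CPM in APP/PS1 mice, which did not overlap. It had 10.4, 10.1, 2.78, 6.77 and 8.97 CPM in A2A mice, also above them, and 5.68, 6.86, 1.50, 4.17 and 5.25 CPM in WT mice, of which replicate 3 was the lowest of all mice. Its interaction was -2.41 (SE 0.63).

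Tlnrd1 (chr7:83879873-83884305), an actin-bundling protein with a talin rod domain, was 1 of 8 genes for which all 4 APP/PS1 A2A mice lay below the 15 others (0.0432% of genes tested, all 8 among the 584), and for 4 genes (0.0216%) all 4 lay above them. It had 9.70, 8.72, 7.67 and 7.79 CPM in APP/PS1 A2A mice and 13.2, 10.8, 11.1, 9.98 and 12.8 CPM in WT mice. The A2A mice had 16.3, 15.9, 9.82, 15.3 and 13.1 CPM and the APP/PS1 mice 19.2, 13.5, 14.2, 11.3 and 9.86 CPM. The lowest of these 15, A2A replicate 3, was only just above the highest APP/PS1 A2A mouse. The interaction was -0.97 (SE 0.24, 95% interval -1.46 to -0.47, edgeR unadjusted p = 0.000657).

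Aes, a corepressor of the Groucho/TLE family, was the leading gene of high level. It had 209.7, 238, 219 and 204 CPM in APP/PS1 A2A mice and 306, 295, 253, 323 and 299 CPM in A2A mice, which did not overlap, against 261, 270.3, 209, 242 and 249 CPM in WT mice and 323, 267, 275, 231 and 235 CPM in APP/PS1 mice. The interaction was -0.55 (SE 0.13, edgeR unadjusted p = 0.00064). The remaining genes at 1 CPM or more among the 12 of smallest p, other than Mrpl34 below, were Ppdpf at -0.71, Zfp428 -0.97 (-0.52 with the offsets for GC content and length described below), the zinc finger protein Fiz1 -0.43, the endosomal GTPase Rab4a -0.43 and B330016D10Rik -0.93. Among genes under 1 CPM, Gpr25, Runx2os1, B230312C02Rik and 1190005I06Rik had -3.31, -1.89, -1.53 and -1.18.

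**Figure D2:**
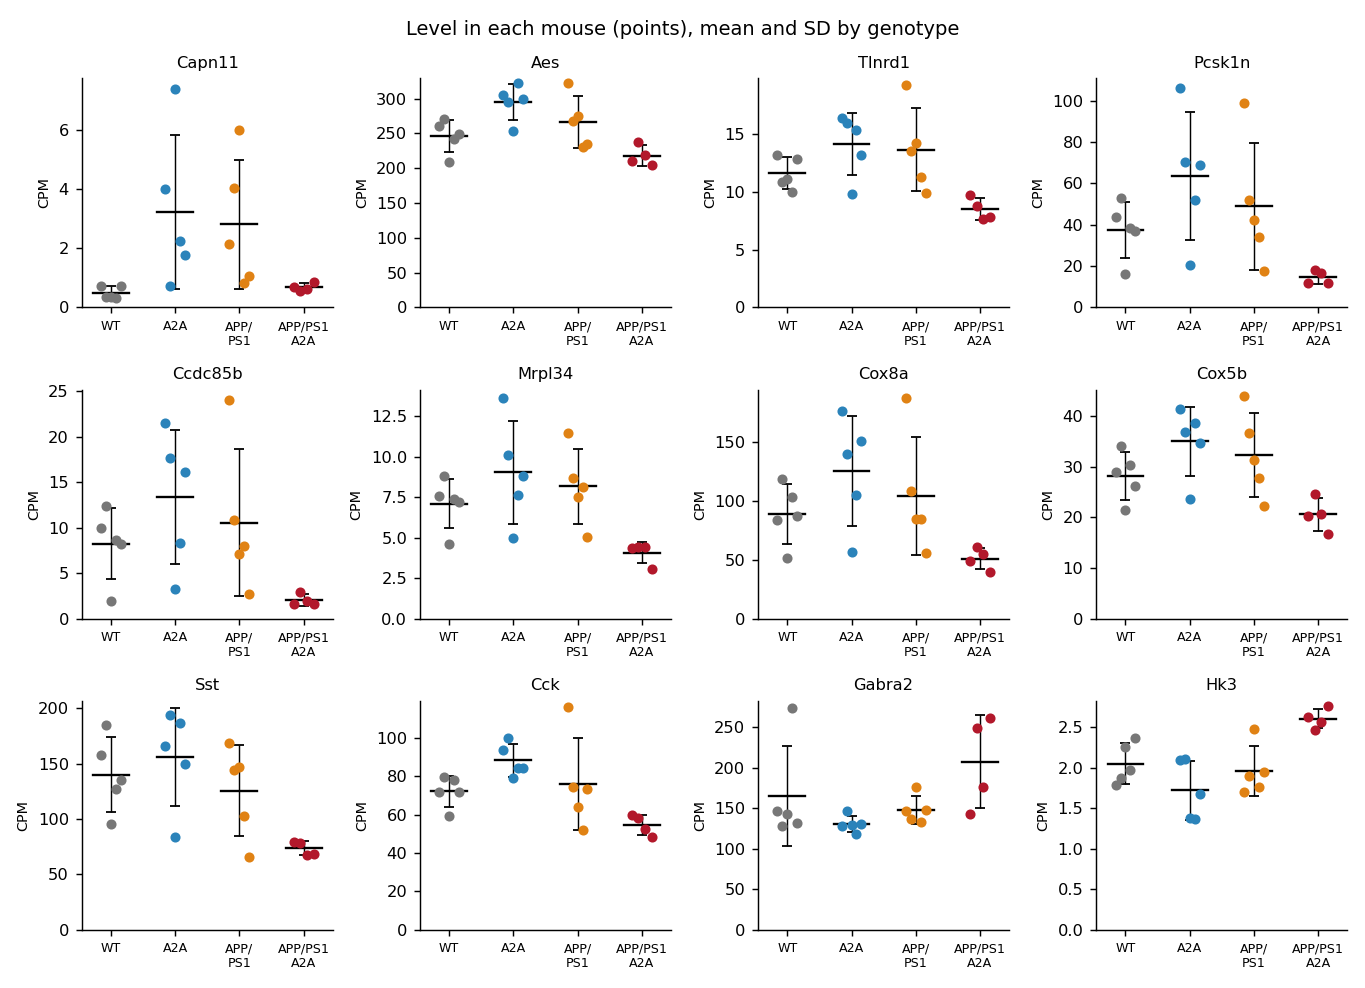
Level in CPM (vertical axis, starting at 0) of 12 genes in each mouse by genotype; bars show the mean and SD. For 10 of the genes the APP/PS1 A2A mice sit low (for Capn11 near the WT mice), with most A2A and APP/PS1 mice above them. Among these genes they overlap with the APP/PS1 mice except for Tlnrd1 and Mrpl34. Gabra2 and Hk3 are the examples with a positive interaction.

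The respiratory chain showed negative interactions across nearly all of its nuclear subunits except those of complex II. Of the 74 genes of complexes I, III and IV and of ATP synthase, 68 had a negative value and 21 were below zero at an unadjusted p under 0.05 (28.4%, against 3.15% of all genes), with 0 above zero and 0 called by edgeR. Over all 18529 genes, 9271 had a negative value and 9258 a positive one. The count of 21 was 9 without APP/PS1 A2A replicate 4, 12 without A2A replicate 4, 12 without APP/PS1 replicate 1 and 34 without WT replicate 2, with 68 or 69 genes negative in each of these fits. The median was -0.20, where that of all genes was 0.00. The range was -1.53 to 0.15. These genes are short (median 588.25 bases) and close to all genes in GC content (median 51.3%).

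Complex IV, cytochrome c oxidase, passes electrons to oxygen, and all 12 of its genes were negative (median -0.26, 6 at an unadjusted p under 0.05, and 3 without APP/PS1 A2A replicate 4). Complex I, the NADH dehydrogenase, had 34 of 36 negative (median -0.20, 8 below zero at that p), among them the core subunit Ndufs7 (-0.44) and the accessory subunits Ndufa6 (-0.41) and Ndufa7 (-0.36). Complex III had 8 of 9 negative (median -0.16), with Uqcrq, a small subunit, at -0.65 (SE 0.20). ATP synthase had 14 of 17 negative (median -0.18), with the subunits Atp5k at -0.47 and Atp5d at -0.42. By contrast the 4 genes of complex II, succinate dehydrogenase, had a median of 0.03, with Sdhb at -0.07, Sdhc at 0.06, Sdhd at 0.03 and Sdha at 0.03. The 7 genes of the mitochondrial genome had a median of -0.13, with 6 negative and 0 at an unadjusted p under 0.05. Without 1 mouse the complex I count of 8 was 4 to 15: it was 4 or 5 without APP/PS1 A2A replicate 3 or 4, APP/PS1 replicate 1 or 2 or WT replicate 5, 13 without APP/PS1 replicate 4 and 15 without WT replicate 2. No difference between the complexes was tested.

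The 3 complex IV genes with the most negative values were Cox8a, Cox6a1 and Cox5b, all structural subunits encoded in the nucleus. Their promoters (250 bases before to 50 after the start of transcription, RefSeq, GRCm38.p6), with that of Mrpl34, are shown because nuclear genes of the chain are known targets of the factors NRF-1 and NRF-2, the latter of the ETS family. Capitals mark each match to the NRF-1 core GCGCATGC or the ETS motif CCGGAAG on either strand. The sequences are 5′ to 3′ on the strand of the gene.
Cox8a: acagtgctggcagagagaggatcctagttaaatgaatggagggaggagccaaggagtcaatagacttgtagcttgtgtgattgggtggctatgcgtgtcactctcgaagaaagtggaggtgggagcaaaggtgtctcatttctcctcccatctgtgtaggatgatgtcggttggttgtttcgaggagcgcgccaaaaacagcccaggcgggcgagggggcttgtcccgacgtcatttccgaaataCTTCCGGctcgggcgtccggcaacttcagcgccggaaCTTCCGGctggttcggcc
Cox5b: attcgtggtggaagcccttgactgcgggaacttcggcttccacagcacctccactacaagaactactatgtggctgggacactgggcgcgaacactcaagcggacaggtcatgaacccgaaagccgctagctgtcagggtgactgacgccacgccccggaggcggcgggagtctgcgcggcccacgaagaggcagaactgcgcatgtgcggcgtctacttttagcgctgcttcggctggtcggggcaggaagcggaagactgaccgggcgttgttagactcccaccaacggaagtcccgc
Cox6a1: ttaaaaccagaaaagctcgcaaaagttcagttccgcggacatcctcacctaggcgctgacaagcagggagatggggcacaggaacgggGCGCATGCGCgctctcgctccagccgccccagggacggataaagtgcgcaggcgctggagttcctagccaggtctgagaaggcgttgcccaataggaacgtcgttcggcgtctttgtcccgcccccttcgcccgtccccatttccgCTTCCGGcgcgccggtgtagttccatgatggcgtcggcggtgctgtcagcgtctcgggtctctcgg
Mrpl34: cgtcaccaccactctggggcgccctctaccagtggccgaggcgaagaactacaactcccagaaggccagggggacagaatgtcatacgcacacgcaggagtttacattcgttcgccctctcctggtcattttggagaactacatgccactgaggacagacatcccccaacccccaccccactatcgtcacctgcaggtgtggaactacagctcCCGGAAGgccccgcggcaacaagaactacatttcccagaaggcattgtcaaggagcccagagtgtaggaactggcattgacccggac

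Cox8a (chr19:7217567-7217866, minus strand) held 2 ETS matches, Cox6a1 (chr5:115348909-115349208, minus strand) 1 ETS match and 2 overlapping NRF-1 core matches, Mrpl34 (chr8:71464676-71464975, plus strand) 1 ETS match, and Cox5b (chr1:36691237-36691536, plus strand) neither motif. The ETS motif was in 14.3% of the 16501 promoters of genes tested, 20.5% of the 566 promoters of the 584 genes, 30% of the 10 of complex IV, 11.8% of the 34 of complex I, 33.8% of the 74 of mitochondrial and 35.1% of the 74 of cytosolic ribosomal proteins. It was in 17.6% of the 74 promoters of the 120 genes with a positive interaction. The NRF-1 core was in 4.44% of all promoters, 4.77% of those of the 584 genes, 5.41% of those of the 120 genes, 10% of those of complex IV, 8.82% of those of complex I and 4.05% of those of cytosolic ribosomal proteins. It was in 10.8% of those of mitochondrial ribosomal proteins, 17.6% of the 17 of ATP synthase and 40% of the 5 of complex III. For ATP synthase and complex III the ETS shares were 29.4% and 40%. Promoters of 12924 of 18519 gene names entered these shares. These are letter matches in a window, and several genes gave more than 1 promoter.

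Cox8a had 49.2, 61.1, 54.9 and 39.3 CPM in APP/PS1 A2A mice and 177, 140.4, 56.4, 105 and 151 CPM in A2A mice. It had 188, 108, 84.8, 84.7 and 56.0 CPM in APP/PS1 mice and 83.9, 119, 51.5, 104 and 87.6 CPM in WT mice. The APP/PS1 A2A mice were low, but WT replicate 3, A2A replicate 3 and APP/PS1 replicate 5 were within their range. The APP/PS1 difference was 0.23 without A2A and -1.30 with it, an interaction of -1.53 (SE 0.45, 95% interval -2.46 to -0.59, edgeR unadjusted p = 0.00302).

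Cox5b had 20.2, 24.6, 20.6 and 16.8 CPM in APP/PS1 A2A, 41.4, 37.0, 23.7, 38.6 and 34.7 CPM in A2A, 43.9, 36.7, 31.3, 27.7 and 22.2 CPM in APP/PS1 and 29.0, 34.1, 21.5, 30.4 and 26.3 CPM in WT mice. The same 3 mice were again the lowest of their groups and overlapped with the APP/PS1 A2A mice. Its interaction was -0.96 (SE 0.26, 95% interval -1.50 to -0.43, edgeR unadjusted p = 0.00136). Cox6a1 had 81.7, 91.3, 83.2 and 69.4 CPM in APP/PS1 A2A mice and 159.7, 149.7, 88.7, 144 and 165 CPM in A2A mice, of which replicate 3 alone lay in the lower range, and an interaction of -0.91 (SE 0.27). Its APP/PS1 A2A mice also overlapped with the APP/PS1 and the WT mice. For comparison, Sdhb of complex II had 94.8, 92.2, 89.7 and 85.2 CPM in APP/PS1 A2A and 90.4, 100.4, 96.3, 114 and 91.7 CPM in A2A mice, and the groups overlapped.

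**Figure D3:**
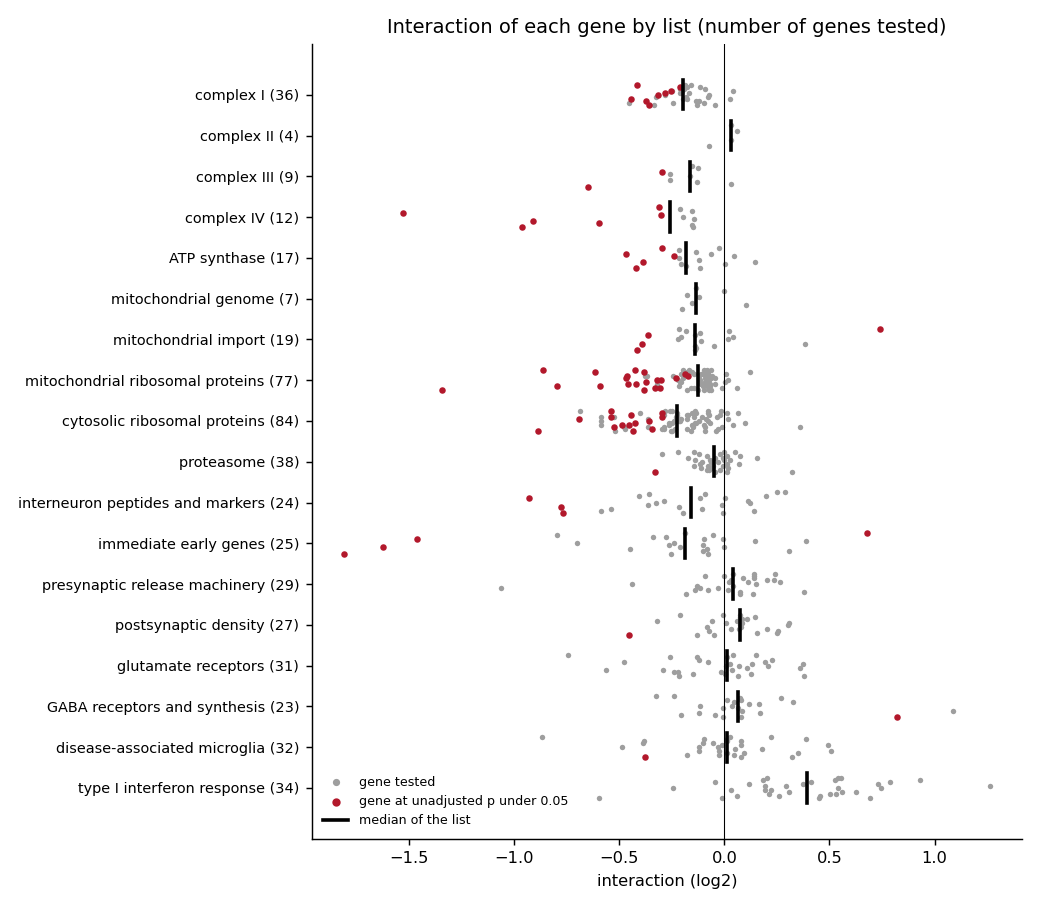
Interaction (log2, horizontal axis) of every gene tested in 18 gene lists; red marks an unadjusted p under 0.05 and the black bar the list's median. Complex I, III, IV, ATP synthase and both ribosomal lists lie left of zero, complex II and the synaptic lists around it, and the interferon list right of it.

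Genes for the synthesis of proteins inside mitochondria had negative values as well. Of 77 mitochondrial ribosomal protein genes, 72 had a negative value and 20 were below zero at an unadjusted p under 0.05 (26%, against 3.15%), with a median of -0.13. That count was 9 without APP/PS1 A2A replicate 4, 11 without APP/PS1 replicate 1 and 13 without A2A replicate 4. Mrpl34, a protein of the large mitochondrial ribosomal subunit, had 4.39, 4.45, 4.40 and 3.08 CPM in APP/PS1 A2A mice, below all 15 others. It had 13.6, 10.1, 4.97, 7.64 and 8.83 CPM in A2A, 11.5, 8.70, 7.50, 8.15 and 5.03 CPM in APP/PS1 and 7.55, 8.81, 4.61, 7.38 and 7.19 CPM in WT mice, and its interaction was -1.34 (SE 0.35, 95% interval -2.08 to -0.60, edgeR unadjusted p = 0.00121). Mrps34, Mrpl12 and Mrpl40 followed at -0.46, -0.46 and -0.43. Of 19 genes of mitochondrial protein import, 3 (15.8%) were below zero at that p, among them the intermembrane chaperone Timm13 (-0.41). In that list 1 gene, Timm8a1, was above zero (0.74, 5.26% of the list, against 0.648% of all genes).

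Cytosolic ribosomal proteins had mostly negative values too, with a number at low p that depended on single mice. Of 84 genes, 78 were negative, 14 were below zero at an unadjusted p under 0.05 (16.7%, against 3.15% of all genes), and the median was -0.22. The count of 14 was 4, 6 and 34 without APP/PS1 A2A replicates 4, 3 and 1, 7 without A2A replicate 4, and 7, 9 and 22 without APP/PS1 replicates 1, 3 and 4. Rplp1, an acidic stalk protein, had 146, 129, 124 and 107 CPM in APP/PS1 A2A and 175, 196, 161, 220.1 and 164 CPM in A2A mice, which did not overlap, and an interaction of -0.54 (SE 0.15). Its APP/PS1 A2A mice did overlap with the APP/PS1 and the WT mice. Rps4l and Rpl36 had -0.88 and -0.54. Ribosomal proteins have many near-identical copies, and the effect of reads that match more than 1 copy was not tested. The proteasome, another abundant complex, had a median of -0.05 over 38 genes with 1 below zero at that p (2.63%).

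The list level in each mouse was taken as the mean z-score of its genes over the 19 mice. For complex IV it was -0.33, -0.51, -0.71 and -1.66 in APP/PS1 A2A, 0.63, 0.66, 0.36, 1.75 and 0.25 in A2A, 0.52, 0.34, 0.06, -0.54 and -0.29 in APP/PS1 and -0.04, 0.71, -0.91, 0.20 and -0.49 in WT mice. For complex I it was -0.48, -0.08, -0.54 and -1.27 in APP/PS1 A2A, 0.27, 0.46, 0.43, 1.94 and 0.09 in A2A, 0.00, 0.41, -0.01, -0.58 and -0.06 in APP/PS1 and -0.17, 0.71, -0.86, 0.24 and -0.52 in WT mice. For both lists the A2A and the APP/PS1 A2A mice did not overlap, and WT and APP/PS1 mice spanned most of the range between. Such a gap concerns the APP/PS1 difference with A2A alone. These groups overlapped for most lists but were also apart for some others. Disease-associated microglial genes scored 0.23 to 1.09 in APP/PS1 A2A and -0.78 to 0.14 in A2A mice, with an interaction median of 0.01. A2A replicate 4 was the highest and APP/PS1 A2A replicate 4 the lowest of all mice for complexes I and IV alike. Without both of these 2 mice, a choice made after their values were seen, the complex IV median was -0.14 (12 of 12 negative, 3 at an unadjusted p under 0.05), that of complex I -0.09 (33 of 36 negative, 3 at that p) and that of cytosolic ribosomal proteins -0.15 (71 of 84 negative, 3 at that p).

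**Figure D4:**
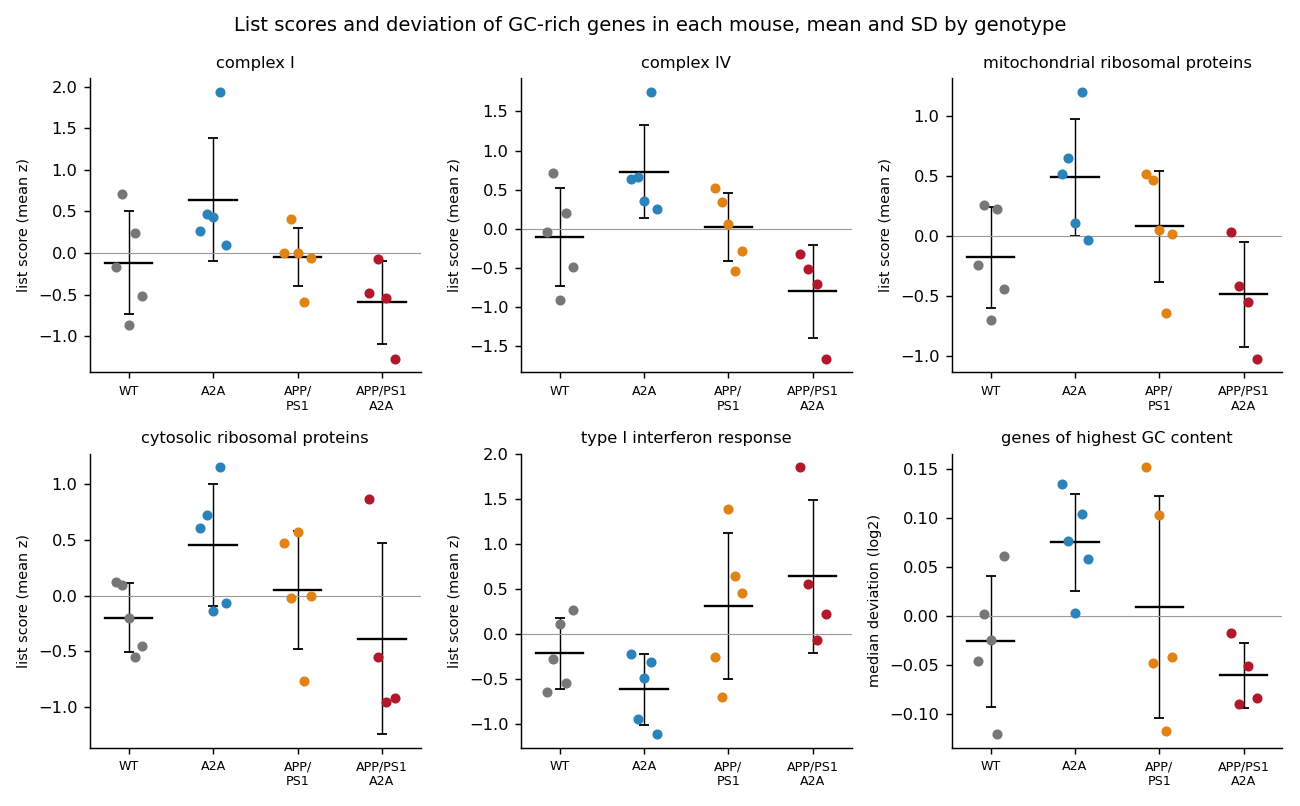
List score (mean z-score) of 5 gene lists, and median log2 deviation of the genes of highest GC content, in each mouse by genotype; bars show the mean and SD. For complexes I and IV every A2A mouse is above every APP/PS1 A2A mouse, and the deviation of GC-rich genes follows a similar order of groups.

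The interaction varied with the GC content of the gene. With the genes in 10 bins of equal size by GC content, its median went from 0.04 in the lowest to -0.16 in the highest, and the share below zero at an unadjusted p under 0.05 from 0.594% to 13.3%. The deviation of the GC-rich genes in the separate libraries was -0.0174, -0.0897, -0.0508 and -0.0836 in APP/PS1 A2A mice and 0.135, 0.077, 0.00314, 0.104 and 0.0581 in A2A mice, with no overlap between them. With an offset for each library's trend with GC content and length, 353 genes were below zero at that p instead of 584, of which 318 were shared, and 78 instead of 247 in the highest bin. The medians of complex IV, complex I, mitochondrial and cytosolic ribosomal proteins were then -0.25, -0.14, -0.11 and -0.18, with 12 of 12, 33 of 36, 72 of 77 and 76 of 84 negative. Below zero at that p were 7, 6, 14 and 11 genes of these lists, in the same order, against 6, 8, 20 and 14 without the offsets. Cox8a was at -1.35, Cox5b at -0.86 and Cox6a1 at -0.64 with the offsets. Of the genes chosen for naming, 58 were below and 19 above zero at an unadjusted p under 0.05, and with the offsets 10 and 2 of them no longer were. Those described here were Apoe (-0.14 with the offsets), Timm13 (-0.12), Rpl36 (-0.28), Nrgn (-0.27), Atp5d (-0.21), Ndufs7 (-0.27) and, above zero, Sorcs3 (0.31). Mrps34 went to -0.25 and 1190005I06Rik to -0.72. The source of this trend was not tested.

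**Figure D5:**
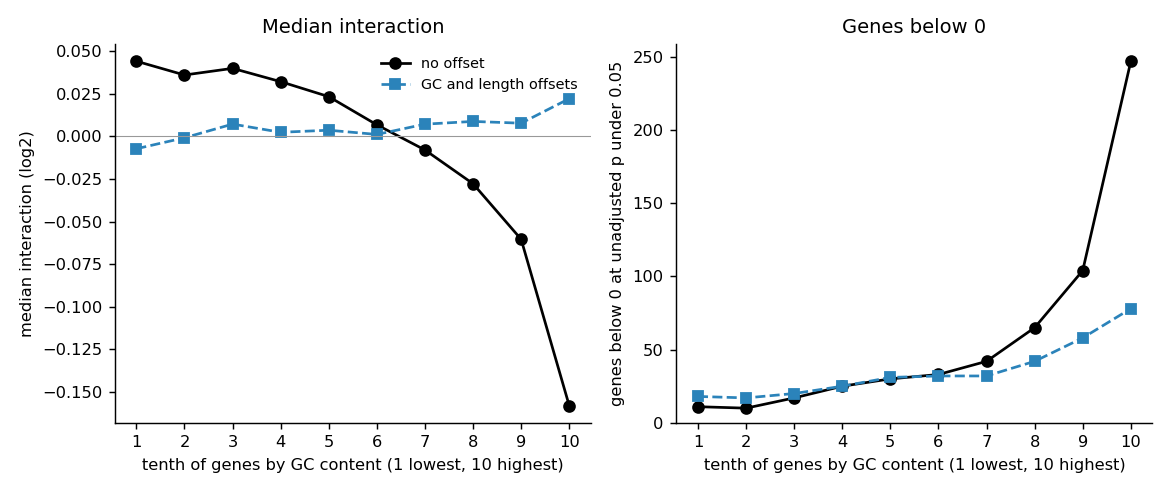
Median interaction (left, log2) and number of genes below zero at an unadjusted p under 0.05 (right) in 10 bins of genes from the lowest to the highest GC content, without (black) and with (blue) offsets for GC content and gene length. The median of the highest bin goes from -0.16 to 0.02, and its number of genes from 247 to 78.

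Some interneuron peptides were among the lower genes. Sst, which encodes somatostatin, the peptide of dendrite-targeting interneurons, had 79.1, 78.7, 67.6 and 68.7 CPM in APP/PS1 A2A mice and 166, 194, 84.0, 187 and 149.8 CPM in A2A mice. It had 169, 144, 147, 102 and 65.8 CPM in APP/PS1 and 158, 185, 95.5, 127 and 135 CPM in WT mice. The APP/PS1 A2A mice were below all A2A and all WT mice but not below APP/PS1 replicate 5, and the interaction was -0.93 (SE 0.34, 95% interval -1.65 to -0.21, edgeR unadjusted p = 0.0146). Cck, the cholecystokinin precursor of basket cells and some pyramidal neurons, had 59.7, 58.3, 52.5 and 48.4 CPM in APP/PS1 A2A and 94.0, 100.2, 79.2, 84.4 and 84.3 CPM in A2A mice, which did not overlap. It had 116, 74.2, 64.3, 52.0 and 73.3 CPM in APP/PS1 and 71.7, 79.9, 59.3, 78.3 and 71.9 CPM in WT mice and an interaction of -0.76 (SE 0.22).

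Cort, which encodes the somatostatin-related peptide cortistatin, was called for the APP/PS1 difference with A2A (-1.44) and not for that without it (-0.66). The test of the difference between these values gave -0.78 (SE 0.31, 95% interval -1.44 to -0.12, edgeR unadjusted p = 0.0226), and without APP/PS1 replicate 3 this p was 0.054. Its level was 1.87, 2.60, 2.31 and 2.30 CPM in APP/PS1 A2A, 6.52, 6.33, 4.91, 7.70 and 5.43 CPM in A2A, 3.92, 3.43, 4.93, 3.04 and 1.82 CPM in APP/PS1 and 4.93, 7.54, 4.07, 5.54 and 4.89 CPM in WT mice. The APP/PS1 mice overlapped with the APP/PS1 A2A mice on one side and with the WT mice on the other. Over the 24 interneuron genes tested, 17 were negative, against 9271 of 18529 over all genes, and 7 were positive, up to 0.29. At an unadjusted p under 0.05, 3 were below zero (12.5%, against 3.15% of all genes), and the list's median was -0.16.

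Immediate early genes, transcribed within minutes of neuronal activity, had 3 genes below and 1 above zero at an unadjusted p under 0.05 among 25. These were 12% and 4% of the list, against 3.15% and 0.648% of all genes. Junb, a transcription factor of the AP-1 family, had 8.59, 12.2, 9.91 and 9.58 CPM in APP/PS1 A2A mice, all below the APP/PS1 mice at 52.3, 17.8, 17.0, 20.7 and 13.3 CPM and the WT mice at 23.3, 17.2, 25.7, 17.6 and 22.4 CPM. The A2A mice had 52.2, 34.8, 8.11, 20.0 and 21.6 CPM and overlapped through replicate 3, and the interaction was -1.62 (SE 0.57). Egr4 and Jund, also transcription factors, had -1.81 and -1.46, whereas Nptx2, a secreted pentraxin that clusters AMPA receptors, had 0.68 (edgeR unadjusted p = 0.0404, and 0.107 without APP/PS1 A2A replicate 1). Without APP/PS1 replicate 1, Junb, Egr4 and Jund were at -1.115, -1.287 and -1.14. The list's median of -0.19 rested on single mice, since it was -0.54 without WT replicate 3 and 0.08 without A2A replicate 1.

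Synaptic lists had medians near zero with all mice included. The median was 0.04 over 29 genes of the presynaptic release machinery, 0.07 over 27 of the postsynaptic density, 0.01 over 31 glutamate receptor genes and 0.06 over 23 genes of GABA receptors and synthesis. In these lists 1 gene each of the postsynaptic density and of the GABA list was at an unadjusted p under 0.05. The first was the calmodulin-binding neurogranin gene Nrgn (-0.45), below zero (3.7% of its list, against 3.15% of all genes). The second was Gabra2, above zero (4.35% of its list, against 0.648% of all genes). Without APP/PS1 replicates 2 and 5, left out after their values were seen, the medians were 0.15, 0.13, 0.09 and 0.14 in the same order. Gabrd, Htr7, Kcnj4, Oprk1 and Tacr1, receptor and channel genes the study singled out, had -0.24, 0.14, -0.35, 0.59 and 0.43, with intervals that included zero. Sncb, which encodes beta-synuclein, had -0.72 (SE 0.23).

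Genes with a positive interaction were fewer and mostly of low level. Gabra2, the alpha-2 subunit of the GABA-A receptor, had 143, 249, 176 and 262 CPM in APP/PS1 A2A mice and 128, 147, 129, 118 and 131 CPM in A2A mice, against 147, 128, 143, 274 and 132 CPM in WT and 147, 137, 177, 133 and 147 CPM in APP/PS1 mice. APP/PS1 A2A replicates 2 and 4 and WT replicate 4 were high, the groups overlapped, and the interaction was 0.82 (SE 0.27, 95% interval 0.25 to 1.40, edgeR unadjusted p = 0.00768). Hk3, a hexokinase of myeloid cells, had 2.63, 2.47, 2.56 and 2.76 CPM in APP/PS1 A2A, 2.10, 2.10, 1.38, 1.37 and 1.67 CPM in A2A, 1.70, 1.90, 2.48, 1.76 and 1.95 CPM in APP/PS1 and 1.78, 1.87, 2.26, 1.97 and 2.37 CPM in WT mice. The APP/PS1 A2A mice were above all A2A and WT mice, and the interaction was 0.66 (SE 0.22, edgeR unadjusted p = 0.00752).

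Rnf213, a large ubiquitin ligase, had 26.9, 24.3, 24.7 and 23.8 CPM in APP/PS1 A2A, 17.4, 15.9, 16.4, 11.4 and 15.8 CPM in A2A, 16.8, 14.2, 26.9, 26.6 and 23.6 CPM in APP/PS1 and 17.3, 20.2, 22.1, 17.6 and 21.5 CPM in WT mice. Here too the APP/PS1 A2A mice were above all A2A and WT mice but overlapped with the APP/PS1 mice, and the interaction was 0.56 (SE 0.22). Further genes at 1 CPM or more among the 12 of smallest p were the sorting receptor Sorcs3 (0.36), the hair-bundle protein gene Strc (0.71), the collagen gene Col5a2 (0.66), the transporter gene Slc10a3 (0.49), Zfp608 (0.43), D130007C19Rik (0.75), Gm10754 (0.98), Gm17732 (1.03) and Gm36298 (0.48). Under 1 CPM, Gm28294, Gm42790, 5033403F01Rik and Gm48405 had 1.39, 1.57, 1.07 and 1.64.

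Genes of the type I interferon response, the antiviral programme also seen in microglia near plaques, had mostly positive values, none at an unadjusted p under 0.05. Of 34 genes 30 were positive (against 9258 of 18529 over all genes), with a median of 0.39. The median APP/PS1 difference was 0.31 without A2A and 0.67 with it. Ddx60, an antiviral helicase, had 3.77, 2.62, 2.43 and 2.67 CPM in APP/PS1 A2A, 1.37, 1.06, 1.46, 0.998 and 1.79 CPM in A2A, 1.56, 1.63, 4.28, 2.53 and 2.25 CPM in APP/PS1 and 1.78, 1.92, 1.54, 2.04 and 1.94 CPM in WT mice, and an interaction of 0.69 (SE 0.35, edgeR unadjusted p = 0.0627). The list score was 1.85, 0.56, -0.06 and 0.22 in APP/PS1 A2A mice and -0.22, -0.94, -0.49, -0.31 and -1.11 in A2A mice, with APP/PS1 A2A replicate 1 the highest of all mice. It was -0.25, -0.70, 1.39, 0.65 and 0.46 in APP/PS1 and -0.64, -0.27, 0.12, -0.54 and 0.27 in WT mice. Without APP/PS1 A2A replicate 1 the median was 0.16.

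The microglial genes Cst7, Clec7a and Itgax were higher in APP/PS1 mice both with and without A2A, and the intervals of their interactions included zero. Of the 10 genes called for the APP/PS1 difference without A2A (0.054% of those tested) and the 12 called with A2A (0.0648%), 10 were called in both. A gene called in both was thereby chosen for a difference of the same kind with and without A2A, so the interactions of these 10 are given as a description only, with a largest absolute value of 0.485. The 2 called with A2A alone were Cort, described above, and the olfactory receptor gene Olfr111. Olfr111 had 0.325, 0.584, 0.726 and 0.775 CPM in APP/PS1 A2A, 0, 0.189, 0.0561, 0.125 and 0.0596 CPM in A2A, 0.227, 0.333, 0.620, 0.400 and 0.382 CPM in APP/PS1 and 0.181, 0.125, 0.171, 0.0668 and 0.178 CPM in WT mice. The carriers of APP/PS1 were above the others in each comparison, its APP/PS1 difference was 1.41 without A2A and 2.65 with it, and its interaction was 1.24 (SE 0.63, 95% interval -0.09 to 2.57, edgeR unadjusted p = 0.065). Cst7, which encodes cystatin F, a protease inhibitor of plaque-associated microglia, had 9.95, 5.82, 5.49 and 6.63 CPM in APP/PS1 A2A and 11.2, 4.87, 7.50, 1.68 and 6.55 CPM in APP/PS1 mice. It had 0.319, 0.260, 0.112, 0.468 and 0.477 CPM in A2A and 0.212, 0.175, 0.342, 0.100 and 0.229 CPM in WT mice. The carriers of APP/PS1 were far above the others with and without A2A, and the interaction was -0.48 (95% interval -1.83 to 0.86), an interval wide enough for a sizeable difference in either direction.

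Clec7a, a pattern recognition receptor, had -0.02 (95% interval -1.21 to 1.17), Itgax, the integrin CD11c, 0.35 (95% interval -0.58 to 1.29) and Trem2, a lipid-sensing receptor, -0.09 (95% interval -0.64 to 0.45). The astrocyte filament gene Gfap had 0.12 and the lysosomal gene Cd68 0.05. Over 32 disease-associated microglial genes the median was 0.01 and 17 were positive. The list had 1 gene below zero at an unadjusted p under 0.05 (3.12%, close to the 3.15% of all genes) and 0 above. It was Apoe (-0.38), the lipid carrier of astrocytes and activated microglia. With a mouse left out in turn, Apoe was at that p in 4 of 19 fits.

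App, the gene of the amyloid precursor protein, had an interaction of 0.12 (95% interval -0.23 to 0.48), with APP/PS1 differences of 1.27 without A2A and 1.39 with it. Prnp, whose sequence drives the transgenes, had 0.04 (95% interval -0.25 to 0.34). Adora2a had 10.3, 1.96, 1.27 and 1.53 CPM in APP/PS1 A2A, 9.35, 1.96, 2.27, 2.18 and 0.865 CPM in A2A, 1.62, 1.43, 1.83, 1.15 and 1.57 CPM in APP/PS1 and 1.27, 1.42, 1.09, 1.54 and 1.48 CPM in WT mice. Replicate 1 of each A2A-carrying group stood apart, the other mice were close to WT, and the interaction was 0.04 (SE 0.83), or -1.20 without APP/PS1 A2A replicate 1 and 0.88 without A2A replicate 1. Summed markers of striatal medium spiny neurons, the main Adora2a-expressing neurons, stayed between 402.43 and 472.44 CPM over all mice. A sum over 14 genes is weighted to the abundant ones and need not show a change in scarce ones. Why replicate 1 of each A2A-carrying group stood apart was not tested. The A1 receptor gene Adora1 had 0.13 (95% interval -0.37 to 0.63).

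The most negative list was that of red blood cells, with a median of -3.12 over 7 genes of which 5 were below zero at an unadjusted p under 0.05 (71.4%, against 3.15% of all genes). Hbb-bs, a beta-globin gene, had 7.49, 68.3, 9.76, 19.1 and 191 CPM in APP/PS1 mice, of which replicates 2 and 5 were far above the rest. It had 8.92, 12.8, 8.71 and 3.64 CPM in APP/PS1 A2A, 6.16, 3.73, 5.30, 22.1 and 13.9 CPM in A2A and 6.16, 4.97, 18.5, 3.34 and 5.56 CPM in WT mice, and an interaction of -3.21 (SE 1.13). Without those 2 mice, left out after their values were seen, it was -0.91 (edgeR unadjusted p = 0.276). In that fit the list's median was -0.91 as well, and 1 of its 7 genes was below zero at an unadjusted p under 0.05. This was Hba-a1 (-1.71, edgeR unadjusted p = 0.0205). The complex IV and complex I medians were then -0.21 and -0.17.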

How the data were processed

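RNA of 19 mice was sequenced by the authors from stranded polyadenylated libraries as single reads. Reads were trimmed, ribosomal reads were removed, and the rest were aligned to mm10 with STAR 2.5.3a and counted per gene with HTSeq 0.6.1p1 in union mode on Ensembl annotations. The authors deposited the raw counts per gene, without normalization, for 35842 genes. The 9 further columns hold the authors' own DESeq2 1.16.1 log2 fold changes and p-values and were not used. Genotype came from the labels, and replicates were numbered in accession order within a genotype.

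Counts were normalized by TMM, filtered by group at a minimum count of 10 and fitted as 4 group means with edgeR 4.0.16 (R 4.3.3). The interaction was tested by the quasi-likelihood F-test over 18529 genes, with Benjamini-Hochberg adjustment. Genes were called where the adjusted p was under 0.05 and the log2 value was over 0.32 in size. Standard errors and 95% intervals come from that fit, and levels are CPM. Library totals ranged from 21305902 to 53717373 counts. List scores used log2 CPM with a prior count of 2. The procedure was tested on simulated data.

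The genes named are those of smallest unadjusted p with an absolute log2 value over 0.32 (12 in each direction at 1 CPM or more and 4 below), the transgenes and adenosine receptors, genes the study names, up to 4 genes of smallest p in each list, and genes an earlier description had named; 1 of these is not reported here. The 46 lists and these genes were chosen with earlier results of these data known. Lists are described by counts and medians, with no test. Promoters and motifs come from RefSeq (GRCm38.p6). Alternatives used DESeq2 1.42.0, limma 3.58.1, sva 3.50.0, offsets from mgcv 1.9.3, other scalings and filters, and leaving out each mouse. Offsets for GC content alone and the omission of 2 pairs of mice were added after the data were seen.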

Additional observations from a re-analysis of the deposited data

Results flagged for a closer look

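In 16 of 184 groups examined (37 genes and 9 list scores, each in 4 genotypes), 1 mouse lay farther from its group than Dixon's 95% criterion allows, and chance gives about 1 in 20. Levels are in CPM, and the range of the other mice of the group follows each value. Ppdpf was 8.37 in WT replicate 3 (10.8 to 11.5) and 9.1 in APP/PS1 A2A replicate 2 (7.88 to 7.97), Zfp428 was 9.21 in WT replicate 2 (6.22 to 7.04) and Mrpl34 was 3.08 in APP/PS1 A2A replicate 4 (4.39 to 4.45). Cox6a1 was 88.7 in A2A replicate 3 (144 to 165) and Ndufs7 was 78.2 in WT replicate 2 (57.4 to 62.6).

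APP/PS1 replicate 1 stood above its group for the immediate early genes Junb at 52.3 (13.3 to 20.7) and Egr4 at 10.1 (2.39 to 4.39). Gabra2 was 274 in WT replicate 4 (128 to 147) and Rnf213 was 11.4 in A2A replicate 4 (15.8 to 17.4). Adora2a was 9.35 in A2A replicate 1 (0.865 to 2.27) and 10.3 in APP/PS1 A2A replicate 1 (1.27 to 1.96). Hbb-bs was 18.5 in WT replicate 3 (3.34 to 6.16), and the score of the red blood cell list in that mouse was -0.123 (-0.59 to -0.474).

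A2A replicate 4 stood above the other A2A mice in the list scores of complex I at 1.94 (0.0945 to 0.464) and complex IV at 1.75 (0.252 to 0.66). The difference between the APP/PS1 effects with and without A2A passed the threshold for Capn11 in DESeq2 with default options (-4.70 on the log2 scale, adjusted p = 7.02e-05) and with a prior on fold changes (-0.56, adjusted p = 0.00548), but not in edgeR.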

How the results depend on the processing

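Over 33 alternatives the number of genes called was 0, except for 1 (Capn11, -4.70, and -0.56 with a prior on fold changes) in each DESeq2 fit. The number with a negative interaction at an unadjusted p under 0.05, 584, became 1117 with limma-voom and sample weights, 353 with offsets for GC content and length, 377 with offsets for GC content alone and 311 without A2A replicate 4 and APP/PS1 A2A replicate 4, of which 279 were among the 584. The number with a positive interaction, 120, became 475 with those sample weights, 468 without a filter on low counts and 205 without APP/PS1 replicates 2 and 5. Leaving out each mouse in turn gave 0 to 0 calls, 361 to 839 negative genes (361 without APP/PS1 A2A replicate 4, 367 without APP/PS1 replicate 1 and 839 without APP/PS1 A2A replicate 1) and 102 to 453 positive genes (453 without APP/PS1 A2A replicate 1 and 263 without APP/PS1 replicate 4). The cause of these shifts was not tested. With RLE size factors the split was 523 negative to 147 positive, and with upper quartile normalization 491 to 158. List medians and selected genes not at an unadjusted p under 0.05 were compared with the spread between mice. They moved by more than this spread in 24 further instances, over 12 results. Named genes at that p were compared by sign alone, and 0 of them changed sign. Changes in their size, such as that of Timm13 from -0.41 to -0.12 with offsets for GC content and length, were not counted. No paired analysis was possible because the labels give the genotypes no shared replicate numbers. The number of mice and low levels limit the precision, and a gene short of the threshold is not shown to lack an interaction.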

Other observations

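Beside Tlnrd1 and Mrpl34, the genes for which all 4 APP/PS1 A2A mice lay below the 15 others were Gadd45gip1 (-0.62 in the interaction), Yeats4 (-0.36), Fam43a (-0.87), Prelid1 (-0.38), Tsfm (-0.27) and Pomc (-2.74), most of them named only after their values were seen. Gadd45gip1 is a protein of the mitochondrial ribosome, Tsfm the mitochondrial elongation factor Ts, and Prelid1 a phospholipid carrier between the mitochondrial membranes. Pomc, the precursor of melanocortins and beta-endorphin, averaged 1.01 CPM in WT, 0.98 CPM in A2A and 4.04 CPM in APP/PS1 mice. All 4 APP/PS1 A2A mice lay above the others for Wasf2 (0.14), Fn3krp (0.21), Sash3 (0.36) and Gm28294 (1.39), 0.0216% of the genes tested.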
